A study of Cyanidioschyzon merolae strain 10D with 3 samples.

Results

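The actin gene and the alpha- and beta-tubulin genes of the unicellular red alga *C. merolae* (strain 10D) were described by their transcript levels. The 3 loci were taken by their identifiers, CMM237C for actin, CMT504C for alpha-tubulin and CMN263C for beta-tubulin, out of 6823 annotated loci. All 3 are on nuclear chromosomes and belong to the 4803 nuclear loci whose identifier ends in C, the class of protein-coding genes. The RefSeq table of assembly ASM9120v1 lists all 3 as protein-coding and gives no product names, so the names come with the identifiers and were not checked against a sequence. The data were 3 RNA-seq libraries of polyadenylated RNA from liquid cultures, labelled as biological replicates. They grew at 42°C and 150 rpm in continuous light of 70 µmol until late log-phase, all under this one condition, with no treatment and no second group.

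Actin assembles into filaments that shape the cell, carry myosin motors and, in animals and fungi, form the ring that divides the cell. Alpha- and beta-tubulin join in equal numbers into the dimer from which microtubules are built, including those of the mitotic spindle. *C. merolae* has no cell wall and divides by furrowing, and a contractile actin ring has not been seen in it, whereas its spindle is built from microtubules.

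Levels were measured as FPKM, fragments per kilobase after scaling to the mapped fragments of the library, which the authors calculated with Cufflinks for each library. Cufflinks gives each FPKM a lower and an upper confidence limit, which lie 2 SD from it and cover the counting of fragments but not differences between cultures. At loci that overlap no other locus the square of FPKM over this SD gives the number of fragments behind the value. These implied fragments summed to 1.30e+07 in library 1, 2.88e+06 in library 2 and 2.98e+06 in library 3 over 4955 loci. The difference between libraries 2 and 3 was smaller than sampling noise, with an index of 0.272 where independent sequencing of one RNA gives 1, against 21.7 and 20.8 for library 1 against each of them. They were therefore counted as 1 sample, and each mean with an SD has n = 2.

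Both tubulin genes were among the higher expressed nuclear genes in every library, while actin was listed at 0 in all of them. Alpha-tubulin, the subunit that holds its GTP permanently, lies on chromosome 20 from 1268612 to 1269955, a locus of 1344 bp. Library 1 gave it an FPKM of 352 (limits 345 to 359), library 2 of 486 (469 to 504) and library 3 of 482 (465 to 499). The first library was thus lower than both others, and its limits did not reach theirs. The values rest on 9971, 3063 and 3137 implied fragments in libraries 1, 2 and 3. Alpha-tubulin ranked 223rd, 194th and 194th from the top among the 4803 nuclear loci ending in C. Its mean FPKM was 418 ± 93.6 (SD, n = 2), which placed it above 95.8% of the other loci.

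Beta-tubulin, the subunit that hydrolyses its GTP after assembly, lies on chromosome 14 from 650546 to 651928, a locus of 1383 bp. Library 1 gave it an FPKM of 361 (limits 354 to 369), library 2 of 373 (357 to 389) and library 3 of 372 (357 to 388). The limits of all libraries overlapped. The implied fragments were 9827, 2266 and 2316. Beta-tubulin ranked 215th, 276th and 282nd from the top, and its mean FPKM of 367 ± 7.96 (SD, n = 2) lay above 94.8% of the other loci. Neither tubulin locus overlaps another annotated locus. Relative to the median nuclear locus ending in C, which had an FPKM of 57.7, 60.5 and 60.4 in the 3 libraries, alpha-tubulin was 6.10, 8.04 and 7.99 times as high and beta-tubulin 6.27, 6.17 and 6.17 times as high.

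**Figure D1:**
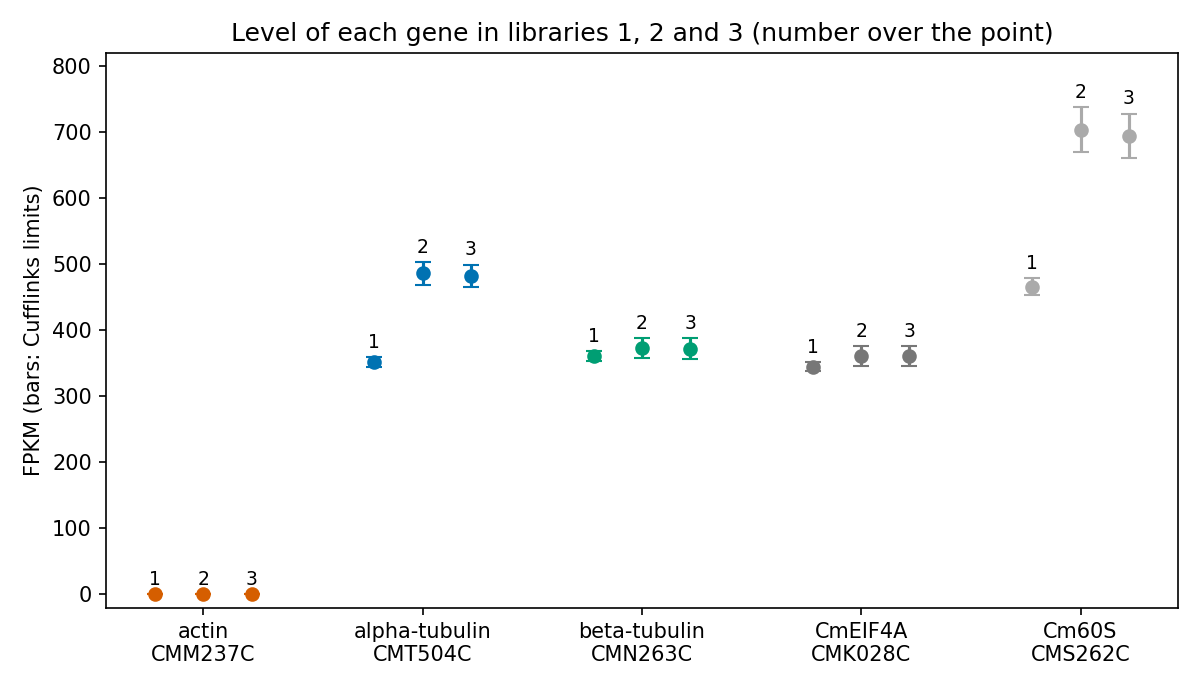
FPKM of actin, alpha-tubulin, beta-tubulin and the control genes CmEIF4A and Cm60S in each library, with bars for the Cufflinks confidence limits and the library number over each point. Actin is listed at 0 throughout, beta-tubulin lies between 361 and 373, and alpha-tubulin lies at 352 in library 1 and at 482 to 486 in libraries 2 and 3.

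The cells were measured in bulk, so a moderate level in all cells and a high level in a few, such as those in division, cannot be told apart. The study used CmEIF4A, a homolog of a translation initiation factor (CMK028C), and Cm60S, a protein of the large ribosomal subunit (CMS262C), as housekeeping genes. They served there as putative non-targets of a histone mark in chromatin immunoprecipitation, not as references for transcript level. The FPKM of CmEIF4A, 345, 361 and 361 by library, was near that of beta-tubulin. The ratio of beta-tubulin to CmEIF4A was 1.05, 1.03 and 1.03 by library. Its 95% interval from the confidence limits included 1 in libraries 2 and 3 (0.975 to 1.10 and 0.973 to 1.09) and lay just above 1 in library 1 (1.02 to 1.08). Alpha-tubulin was 1.02 times CmEIF4A in library 1 (95% interval 0.992 to 1.05), and 1.35 and 1.33 times in libraries 2 and 3. Cm60S was the highest of these genes, with 466, 704 and 695 FPKM. Alpha-tubulin reached 0.755, 0.691 and 0.694 of it, and beta-tubulin 0.775, 0.530 and 0.536. Cm60S is a shorter locus (657 bp), and library 1 differed by chromosome and locus length, as given below. The change of these ratios between libraries was not separated from that.

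**Figure D2:**
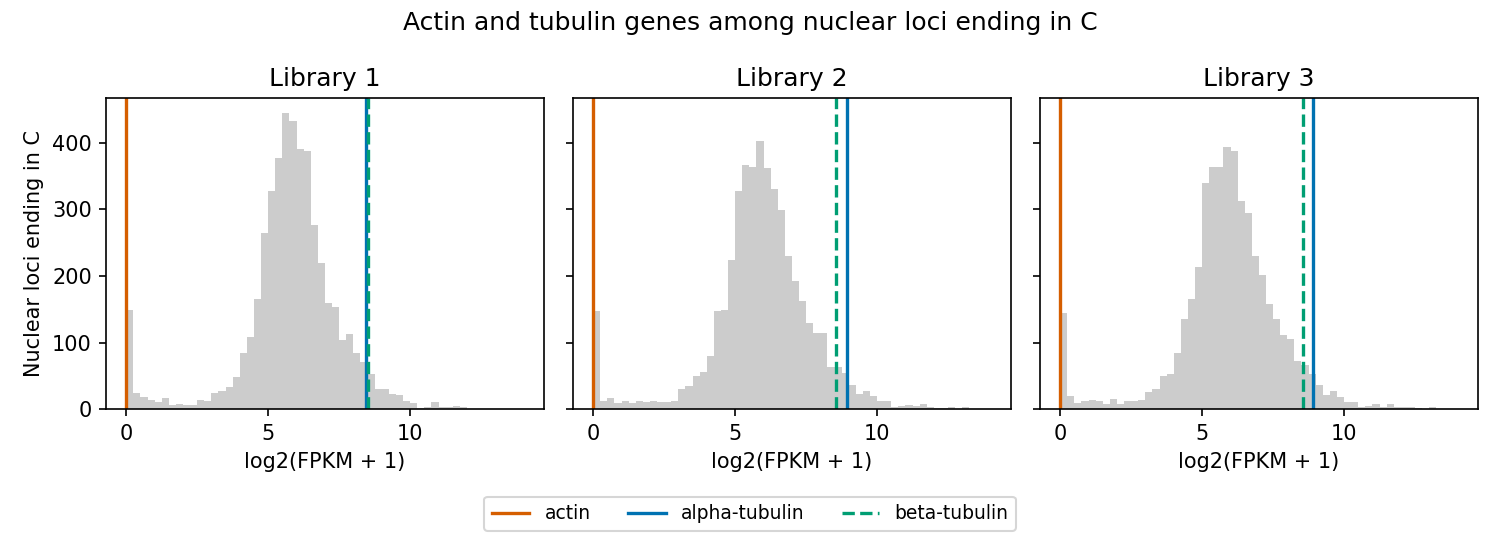
Histograms of log2(FPKM + 1) over the 4803 nuclear loci ending in C in each library, with vertical lines at actin, alpha-tubulin and beta-tubulin. Both tubulin genes lie on the upper shoulder of the distribution, and actin lies at 0, where 139 other loci were listed in library 1 and 143 in libraries 2 and 3.

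Alpha-tubulin and beta-tubulin were compared within each library, since their proteins form one dimer. In library 1 the ratio of alpha- to beta-tubulin was 0.973 (95% interval 0.946 to 1.00), against 1.30 in library 2 (1.23 to 1.38) and 1.29 in library 3 (1.23 to 1.37). In library 1 the interval only just included 1, with an upper end of 1.001, and alpha-tubulin was higher in libraries 2 and 3. Alpha-tubulin had more implied fragments than beta-tubulin in library 1 (9971 against 9827), on a shorter locus (1344 against 1383 bp). Its FPKM was nevertheless lower there, so FPKM did not follow from implied fragments and locus length alone. The reason was not tested. Over the samples, log2(FPKM + 1) of alpha-tubulin differed from that of beta-tubulin by 0.17 ± 0.29 (SD, n = 2), less than the spread between samples. The two-sided exact permutation test over samples, which does not pair the values by library, gave p = 1, and p = 0.4 with the 3 libraries counted as 3 samples. These tests cannot pass 0.05, because the smallest p is 0.333 with n = 2 and 0.1 with n = 3.

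Library 1 was compared with libraries 2 and 3 gene by gene. Alpha-tubulin was 1.38 times as high in the mean of libraries 2 and 3 as in library 1, and beta-tubulin 1.03 times. No member differed by more than 1.5 times, which 11.0% of the 4622 nuclear loci ending in C with a mean FPKM of at least 1 did from library 1 to library 2. The share was 10.2% from library 1 to library 3 and 0.454% from library 2 to library 3. The limits of alpha-tubulin did not overlap between library 1 and either other library. This is common in these data, as it held for 49.0% of loci when library 1 was set against library 2 and for 48.0% against library 3. Library 2 against library 3 gave 0.195%.

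The size of the difference followed the chromosome on which a gene lies, and it also varied with the length of the locus. On the scale of log2(FPKM + 1), library 1 minus the mean of libraries 2 and 3 was -0.46 for alpha-tubulin. The median of the other 472 such loci on chromosome 20 was -0.43, and 98.5% of the loci there were lower in library 1. The next loci on either side of alpha-tubulin were also lower in library 1, with -0.43 at CMT503C, 610 bp before it, and -0.30 at the repetitive element CMT505X, 172 bp after it. CMT505X had 1.98 FPKM in library 1 and 2.65 in library 2, a level at which the pseudocount of 1 shrinks the difference. Further out, CMT502C had -0.56, and CMT506C, a locus of 153 bp, had -3.60, from 58.1, 787 and 644 FPKM in libraries 1, 2 and 3. Alpha-tubulin departed from the median of its chromosome by only -0.03, and 44.5% of the other loci of chromosome 20 lay below it. Over all nuclear loci, by contrast, only 12.5% lay below it, and of the 1303 loci of similar length (a ratio of the shorter to the longer of at least 0.8), 4.14%. A difference of -0.4 or lower was found at 63.8% of the loci of chromosome 20 and at 16.5% of all 4622 loci.

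For beta-tubulin on chromosome 14 the same difference was -0.04, against a median of 0.01 over the other 228 loci of that chromosome. It departed from its chromosome by -0.05, and 43.4% of the other loci lay below it. Its neighbour CMN264C, 783 bp after it, had 0.03. Each tubulin gene thus had a difference near the median of the other loci on its own chromosome. CmEIF4A departed by -0.08 from the median of chromosome 11, while Cm60S, a locus of 657 bp, departed by -0.37 from that of chromosome 19. Over all chromosomes, the 694 loci of a length similar to Cm60S had a median difference of -0.20. The 1303 loci of a length similar to alpha-tubulin had -0.03. The values of short loci such as Cm60S and CMT506C were therefore not separated from their length.

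**Figure D3:**
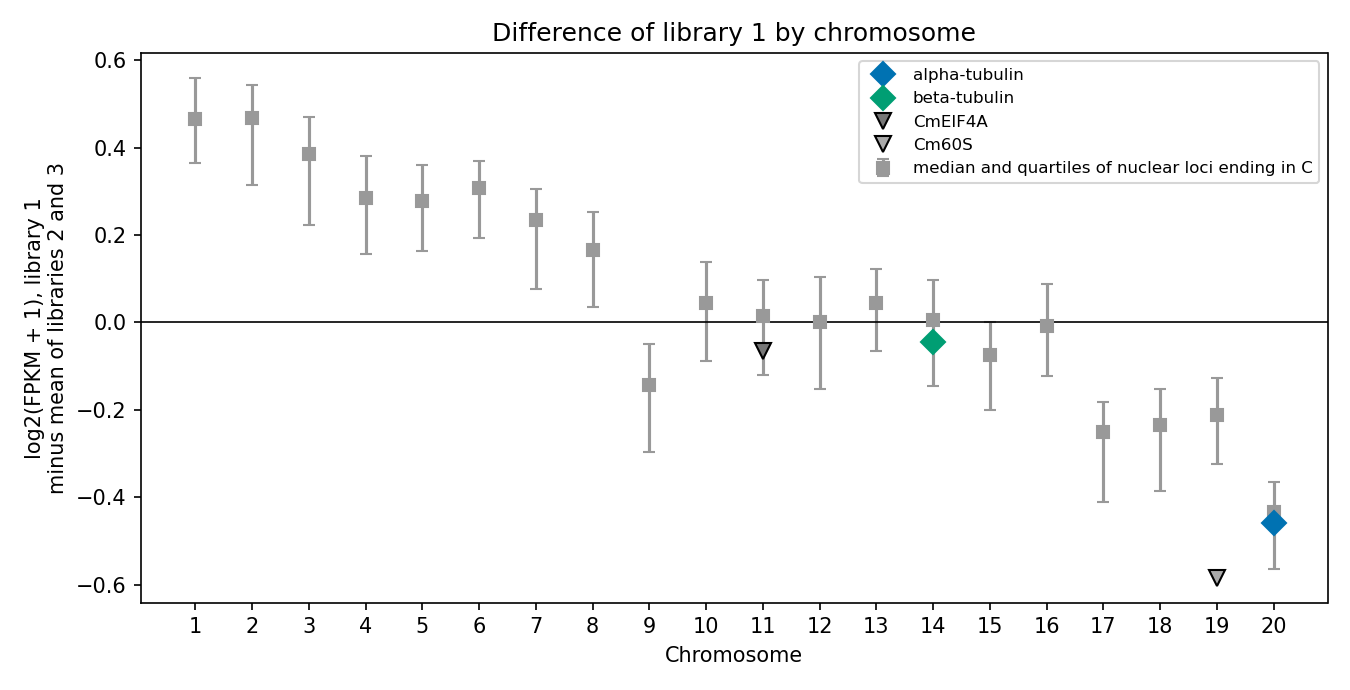
Difference of log2(FPKM + 1) between library 1 and the mean of libraries 2 and 3, with squares for the median and bars for the quartiles of the nuclear loci ending in C on each chromosome, diamonds for the tubulin genes and triangles for the control genes. The median goes from 0.47 on chromosome 1 to -0.43 on chromosome 20, and alpha-tubulin (-0.46) and beta-tubulin (-0.04) lie close to the medians of chromosomes 20 and 14.

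In an alternative chosen after seeing the data, FPKM was scaled in each library to a common median of the nuclear loci ending in C on the same chromosome. Alpha-tubulin then had a scaled FPKM of 436, 437 and 446 in libraries 1, 2 and 3, and beta-tubulin 360, 372 and 375. The ratio of alpha- to beta-tubulin became 1.21, 1.17 and 1.19. The log2 difference was 0.26 after this scaling. In their difference between libraries, both genes lay near the medians of their chromosomes. The scaling therefore brings the libraries together by construction, so the values are a description with no test. Whether library 1 or libraries 2 and 3 carry the level of the cells was not tested. As deposited, alpha-tubulin was higher than beta-tubulin in libraries 2 and 3 but not in library 1.

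The actin locus lies on chromosome 13 from 590729 to 591859 and spans 1131 bp. Its FPKM and both limits were listed at 0 in libraries 1, 2 and 3. Of the nuclear loci ending in C, 140, 144 and 144 were listed at 0 in these libraries, and 117 of the 4803 in all of them (2.44%). Actin was therefore tied with 116 other loci over the 3 libraries, and no other locus was nearer to its pattern.

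A value of 0 at actin was not read as a lack of transcripts, because another annotated locus lies over most of the gene. CMM238T, listed as miscellaneous RNA in RefSeq, runs from 591017 to 593181 and covers 843 bp of actin (74.5% of its length), which leaves 288 bp at the lower coordinates free. It was measured at 110 FPKM in library 1 (limits 104 to 115), at 98.7 in library 2 (91.4 to 106) and at 98.0 in library 3 (90.9 to 105). This level was above that of 81.3% of the other nuclear loci ending in T, whose median was 53.7. The library kit is not described as keeping the strand, so reads within the shared 843 bp could come from either locus, and how Cufflinks divided them is already contained in the values. The other 288 bp lie under no other annotated locus, yet the FPKM of the gene was 0, and why was not tested. As the value of actin can depend on the overlap, no fold between the tubulin genes and actin is given.

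**Figure D4:**
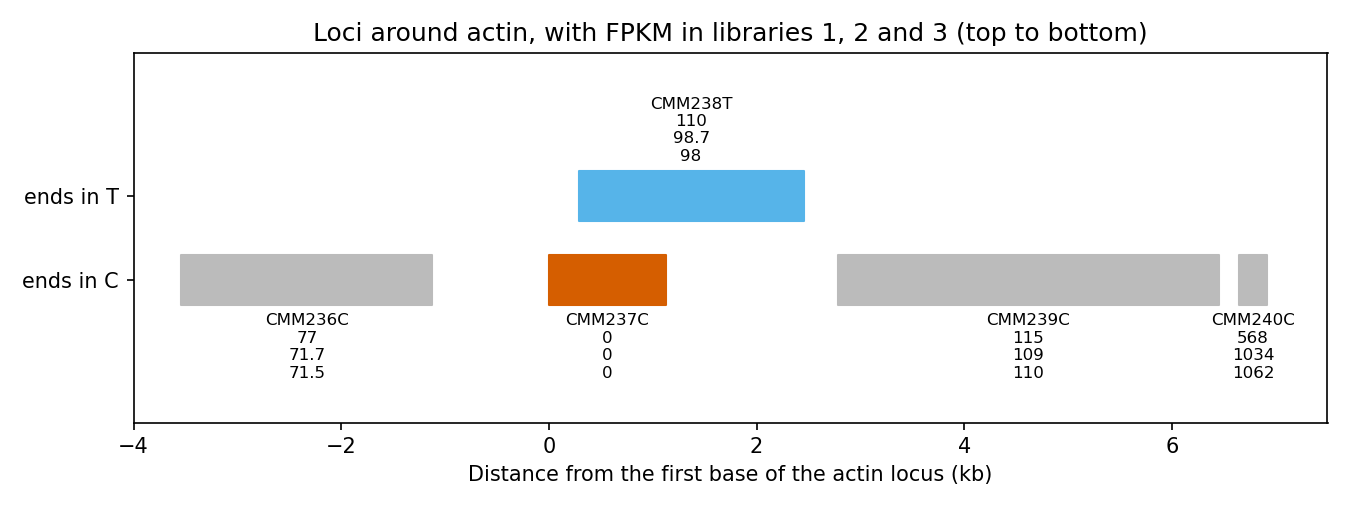
Map of the loci around actin, with the distance from its first annotated base in kb on the horizontal axis and the FPKM of libraries 1, 2 and 3 written at each locus from top to bottom. CMM238T (98.0 to 110 FPKM) starts 288 bp into the actin locus (0 in each library) and ends beyond it.

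The nearest loci on either side of actin that overlap no other locus were measured above 0. CMM236C, which ends 1122 bp before actin, had 77.0, 71.7 and 71.5 FPKM by library. CMM239C, which starts 1651 bp after it, had 115, 109 and 110. Farther from actin, the repetitive element CMM234X had 0.247, 0.393 and 0.324 FPKM.

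Values of 0 were unevenly spread over the overlap classes. Of the 3989 nuclear loci ending in C that overlap no other locus, 16 were listed at 0 in all libraries (0.401%), and of the 814 with any overlap, 101 (12.4%). The share was 5.10% among loci covered on up to 25% of their length and 48.1% among the 106 that are covered entirely. In the class of actin, covered on more than 50% and up to 75%, 10 of 127 loci were listed at 0 (7.87%). Most loci with an overlap like that of actin therefore had a value. Of the 90 loci covered in part but on more than 50% by a single locus ending in T, 14 were listed at 0, actin among them. The overlapping T locus had a median of the mean FPKM of 41.1 at these 14 and of 49.3 at the other 76, and ranged from 0 to 245 and from 0 to 811. Of the 14 loci listed at 0, 6 kept at least 288 bp free of the T locus, as actin did, and so did 51 of the other 76. What sets actin apart from the overlapped loci with a value was not tested.

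**Figure D5:**
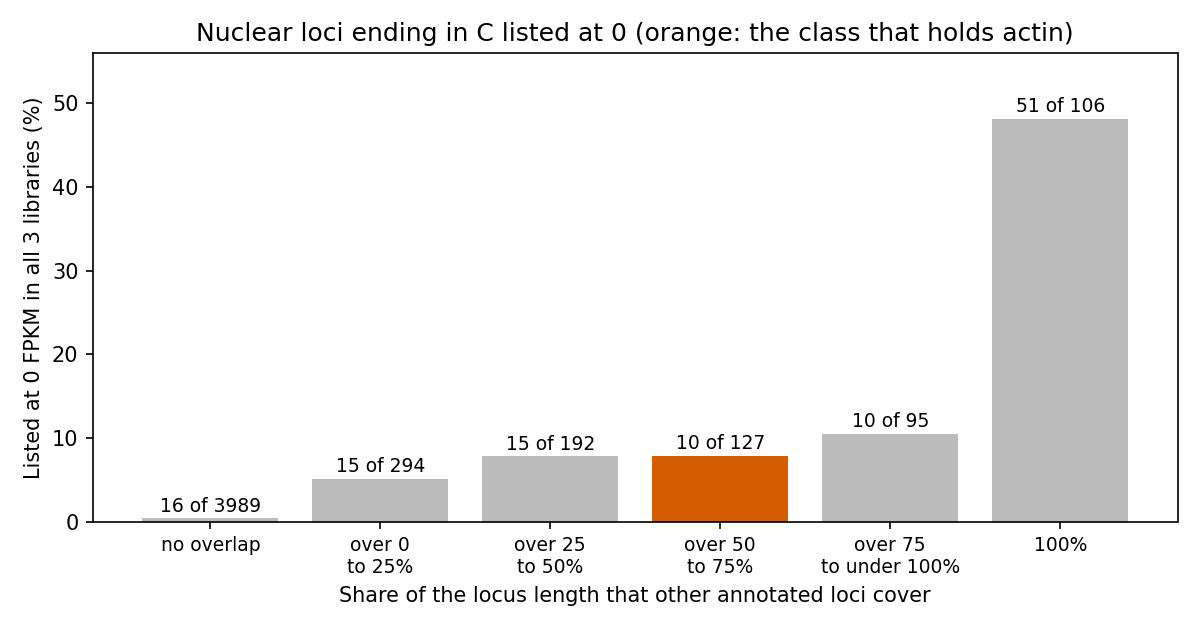
Share of nuclear loci ending in C listed at 0 FPKM in all 3 libraries, in percent, by the share of their length that other annotated loci cover, with the numbers of loci over the bars. The share is 0.401% without overlap, 7.87% in the class of actin (orange) and 48.1% at loci covered entirely.

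The loci most like each tubulin gene were taken as the 3 nuclear loci ending in C with the smallest Euclidean distance in log2(FPKM + 1) over the 3 libraries. For alpha-tubulin these were CMR289C on chromosome 18 (350, 487 and 481 FPKM), CMT288C on chromosome 20 (344, 487 and 479) and CMT024C on chromosome 20 (342, 477 and 470), at distances of 0.0098, 0.033 and 0.062. For beta-tubulin they were CMM212C on chromosome 13 (363, 366 and 378 FPKM), CMP252C on chromosome 16 (368, 383 and 375) and CMI148C on chromosome 9 (353, 381 and 386), at distances of 0.034, 0.048 and 0.069. Since libraries 2 and 3 counted as 1 sample, this likeness rests on the level and on the difference of library 1, and the files give no names for these loci.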

How the data were processed

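Polyadenylated RNA of *C. merolae* strain 10D was made into 3 TruSeq libraries and sequenced as paired ends. In Galaxy, the authors ran FastQC and then the Tuxedo protocol on the v3 annotation of the *C. merolae* Genome Project. They deposited the FPKM of each locus with its confidence limits, as calculated by Cufflinks for each library separately. Program versions and the handling of reads with several matches are not given in the sources used here. Since FPKM are not counts, no count test was run. Implied fragments were within 0.05 of a whole number at 66.4% to 73.2% of the loci without overlap with fewer than 50 fragments.

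Locus starts, counted from 0 in the files, were written from 1. Lengths are spans from the first to the last annotated base of a locus. At nuclear loci ending in C, 99.6% of them are multiples of 3, as coding lengths are. A pseudocount of 1 was used on the log2 scale, which understates changes of low values. The noise index was the mean chi-square of implied fragments over 4381 loci with more than 20 fragments in each library. In simulated counts the index was recovered for independent draws and for draws that shared part of their fragments. Shifts planted by chromosome were recovered too. The index values and chromosome medians reported here were not themselves simulated. That simulation does not cover the step from confidence limits to implied fragments. Intervals of ratios cover counting error only.

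The genes named were the members, the 3 loci most like each tubulin gene, the loci beside the members and the study's control loci. Lists by product name were foreseen but not made, as the tables used here hold no product names. The members and lists were chosen with earlier results of these data known. The alternatives were a pseudocount of 0.1, other sets of loci for the percentile, scaling to a common median per library or, chosen after seeing the data, per chromosome, 3 libraries counted as 3 samples, runs that each left out a library, and a test paired by library, also added after seeing the data. The analysis ran in Python 3.11.15 with scipy 1.17.1, pandas 2.3.3, matplotlib 3.10.9 and numpy 2.4.6.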

Additional observations from a re-analysis of the deposited data

How the results depend on the processing

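Paired by library, in an alternative added after seeing the data, alpha-tubulin differed from beta-tubulin by the same 0.17 (p = 1 in the exact test with n = 2, where the smallest p is 0.5), and p was 0.5 with the 3 libraries counted as 3 samples, where the smallest is 0.25. The log2 difference was then 0.24, and alpha-tubulin was higher in 2 of 3 libraries. Actin was listed at 0 under each alternative, which could not turn out otherwise because its FPKM was 0 in every library. Differences of the tubulin genes from actin were not calculated as folds. The mean FPKM of alpha-tubulin ranged from 417 to 484 and that of beta-tubulin from 367 to 373 with one library left out, the highest without library 1 in both cases. The percentile of beta-tubulin moved by more than its spread among loci of similar length, to 95.8. The log2 difference of alpha- from beta-tubulin ranged from 0.17 to 0.38 with one library left out. As libraries 2 and 3 counted as 1 sample, leaving out either kept that sample, so the direction was not put to a test. In library 1 alone the log2 ratio of alpha- to beta-tubulin was -0.04. The log2 difference was 0.38 without library 1, which moves it by over 1.5 times and leaves 1 sample and no test. Scaling to the median of the same chromosome, chosen after seeing the data, reduced the loci that differ by more than 1.5 times from 509 to 295 between libraries 1 and 2 and from 473 to 305 between libraries 1 and 3. The medians were taken from the same loci, so this scaling brings the libraries together by construction and the lower counts are a description.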

Other observations

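The chromosome-wide difference that alpha-tubulin shared was found across the nuclear genome. On the scale of log2(FPKM + 1), the median of library 1 minus the mean of the other libraries was 0.47 on chromosome 1, 0.47 on chromosome 2, 0.38 on chromosome 3, 0.17 on chromosome 8, -0.25 on chromosome 17 and -0.43 on chromosome 20. Over the 20 chromosomes Pearson's r of this median with the end of the last annotated locus, a measure of chromosome size, was -0.956 and Spearman's rho -0.934, given as a description, since all points come from the same libraries. Chromosome 9, with -0.14, lay below chromosomes 10 to 14, whose medians were 0.00 to 0.04. Between libraries 2 and 3 the chromosome medians lay between -0.03 and 0.01.

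The trend was also present at loci whose identifier does not end in C. Some of these overlap loci ending in C and can share their reads, so they are not a fully separate set. The median over the 120 loci of chromosome 20 that do not end in C was -0.35, and over the 35 such loci of chromosome 1 it was 0.46. Among loci ending in C of 1000 to 2000 bp, the length range of the tubulin genes, it was -0.41 on chromosome 20 and 0.49 on chromosome 1. Along chromosome 20, 4 consecutive groups of 118 or 119 loci had medians of -0.41, -0.44, -0.47 and -0.44, so the difference was not confined to the region of alpha-tubulin. Its source was not tested.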
